A study of Mus musculus with 6 samples.

Results

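This account covers 10 transcription factors and cofactors that govern red blood cell formation: Gata1, Klf1, Tal1, Nfe2, Zfpm1, Lmo2, Gfi1b, Ldb1, Bcl11a and Myb. They were taken by gene symbol as every probe set of the array annotated to 1 of these genes alone. That gave 19 probe sets of 45037, and 10 genes of the 18193 with a probe set of their own. Each gene had 1 probe set except Zfpm1 with 2, Myb with 3 and Bcl11a with 7.

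Expression was measured in mouse fetuses at E12.5, in 3 samples labelled Sp3 knockout and 3 labelled wildtype. No other genotype or treatment is labelled. How the Sp3 allele was made, and the strain, are not given in the sources used here. Per the labels each sample was the RNA of 1 heart and each array is 1 replicate. The samples carry the letters a to c within each group.

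Erythroid precursors are built by a small network of DNA-binding proteins that act on each other's genes. Gata1, Tal1, Lmo2 and Ldb1 sit together on DNA in 1 complex, Zfpm1 binds Gata1 directly, and Klf1 activates adult beta globin and many red cell genes through CACCC elements. In the mouse fetus definitive red cells are made in the liver, while primitive cells from the yolk sac circulate through the heart. Sp3, the factor missing from the knockout, belongs to the same zinc finger family as Klf1 and binds GC boxes and CACCC elements.

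Promoter sequence is shown for Gata1, Klf1 and Tal1, since these genes of the network varied alike over the arrays and the deleted factor binds GC-rich elements. Windows of 250 bases before the annotated start came from RefSeq on GRCm38.p6, and the table used here held windows for 8 of the 10 genes. Nfe2 and Lmo2 had no window, so their promoters were not searched. Capitals mark 3 motifs searched on both strands: a GATA word, the letters CACCC, and the GC box GGGCGG. The GATA word was AGATAA or its form ending in G, or TGATAA or likewise its form ending in G. The motifs do not overlap each other in the sequences shown.

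Gata1 chrX:7967911-7968160 minus strand: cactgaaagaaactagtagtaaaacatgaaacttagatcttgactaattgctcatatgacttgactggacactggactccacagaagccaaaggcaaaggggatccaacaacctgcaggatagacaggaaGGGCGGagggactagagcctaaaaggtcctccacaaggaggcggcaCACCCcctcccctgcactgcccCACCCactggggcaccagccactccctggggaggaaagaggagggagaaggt
Klf1 chr8:84901732-84901981 plus strand: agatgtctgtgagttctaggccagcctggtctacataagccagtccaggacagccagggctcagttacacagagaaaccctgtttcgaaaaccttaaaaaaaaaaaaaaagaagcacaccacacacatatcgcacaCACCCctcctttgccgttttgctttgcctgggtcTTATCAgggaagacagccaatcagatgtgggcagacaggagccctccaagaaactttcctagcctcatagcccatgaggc
Tal1 chr4:115056176-115056425 plus strand: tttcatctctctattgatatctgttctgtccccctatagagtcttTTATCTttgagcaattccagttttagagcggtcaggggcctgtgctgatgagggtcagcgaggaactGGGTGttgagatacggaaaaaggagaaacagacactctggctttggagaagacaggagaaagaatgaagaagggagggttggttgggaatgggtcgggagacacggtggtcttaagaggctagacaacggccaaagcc

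The Gata1 window held 2 CACCC matches and 1 GC box, and no GATA word. The Klf1 window and the first Tal1 window each held 1 GATA word and 1 CACCC match, and no GC box. A second annotated Tal1 start, whose sequence is not shown, had 3 GC boxes and neither of the other motifs. Over all 11 windows of the 8 genes, 10 held CACCC, 8 a GC box and 4 a GATA word. Among all 32851 windows of this length the shares were 52% for CACCC, 32.7% for the GC box and 26.5% for a GATA word. Ldb1 gave 3 of the 11 windows and Tal1 2. The share of G and C in the 11 ran from 44.4% to 81.2%, and motif shares at matched base content were not computed. These are matches of letters and do not show binding.

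Values are given as log2 of the deposited intensity, so a difference of 1 is a factor of 2. Median log2 values per array ran from 4.49 to 4.74. Sp3 itself was lower in knockout at its single probe set, at 8.39, 8.34 and 8.61 against 9.87, 9.77 and 9.54 in wildtype (limma adjusted p = 0.00254). The labels do not place this probe set inside or outside the deletion. Arrays labelled heart carried strong liver signal: Alb was between 13.03 and 13.41 in all 6, while of 16 heart muscle markers the cardiac actin Actc1 was between 6.35 and 8.99 and the defining factor Nkx2-5 between 2.59 and 4.53. The median level was 11.74 over the 14 hepatocyte markers measured and 3.51 over the 16 heart muscle markers. Probe sets differ in their response, so such levels are only a rough check of the label. Which blood or liver cells the samples held was not tested.

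No member passed the test between knockout and wildtype. Of the 19 probe sets, 0 had a limma adjusted p under 0.05, in an array where 14 probe sets did so, 0.0311%, with 7 higher and 7 lower in knockout. With each array shifted to an equal mean over the red cell markers, the array-wide split was 8 higher and 1 lower. Without adjustment 1 of the 19 had a p under 0.05, against 7.16% of all probe sets. By the brightest probe set of each gene, 7 of the 10 genes were lower in knockout and 3 higher, and the median log2 difference was -0.17. That median was -0.31 without knockout b, -0.07 without knockout c and -0.10 without wildtype b, and 3 genes were lower after the shift by the red cell markers. Over all genes 52.5% were lower and the median was -0.02. Levels in bulk RNA do not separate fewer red cells from less RNA per cell, and this holds for each value that follows.

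**Figure D1:**
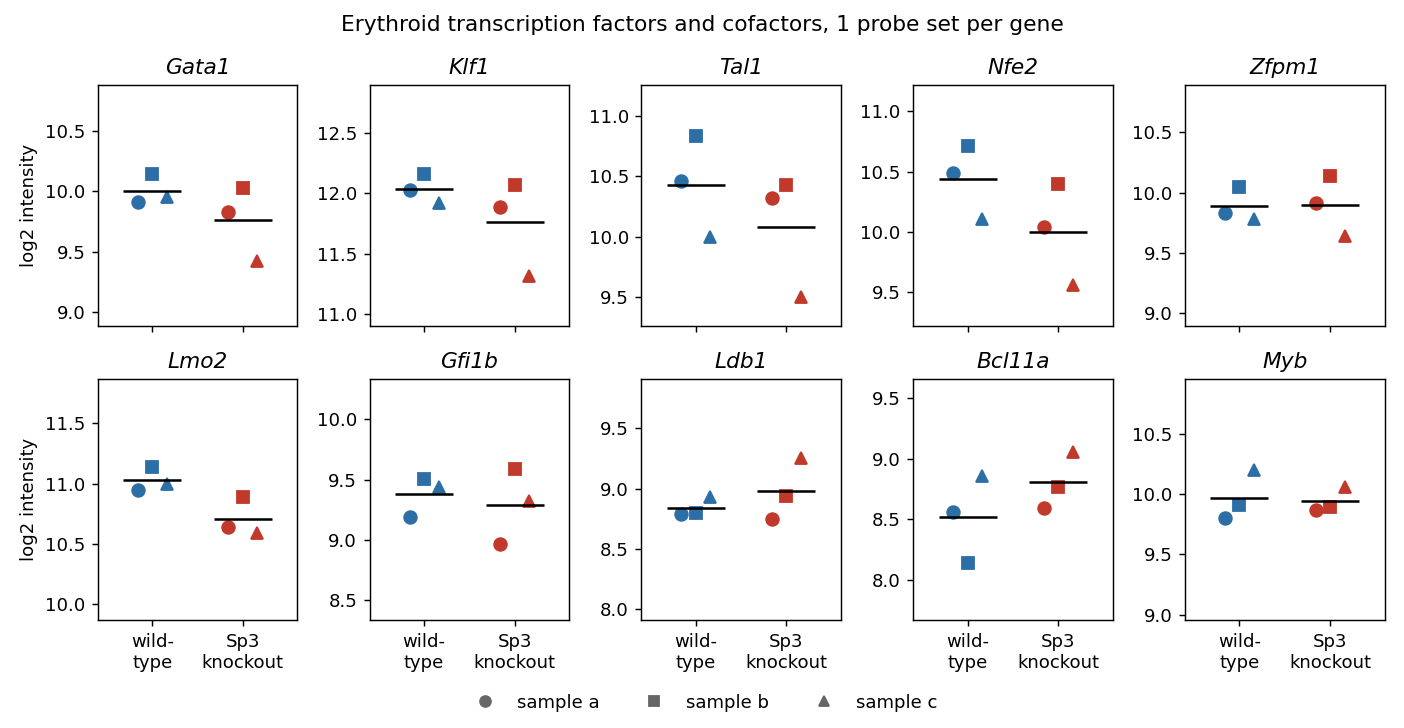
Log2 intensity of the 10 genes at their brightest probe set, each panel with the same span of 2 log2 units, points for single arrays, symbols for the sample letter and black lines for group means. The Lmo2 points of the 2 groups are separate, and sample c of the knockout is the lowest point for Gata1, Klf1, Tal1, Nfe2, Zfpm1 and Lmo2.

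Lmo2, the LIM protein that bridges Tal1 and Gata1 in the complex, was the member with the smallest p. The knockout arrays, in the order a, b, c used throughout, were at 10.64, 10.89 and 10.59, and the wildtype arrays at 10.95, 11.14 and 11.00. All 3 knockout arrays were below all 3 wildtype arrays, though the highest knockout array came close to the lowest wildtype array. The log2 difference was -0.32 (95% interval -0.53 to -0.12), a ratio of 0.799, with unadjusted p = 0.00518 and limma adjusted p = 0.541. It was between -0.41 and -0.27 with any 1 array left out. Lmo2 was the only 1 of the 10 member genes whose brightest probe set was lower in knockout without overlap. Of all 18193 genes at their brightest probe sets, 1644 were lower in that way, and of all probe sets 6.89%.

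Gata1, the central erythroid activator, was at 9.83, 10.03 and 9.42 in knockout and 9.91, 10.14 and 9.95 in wildtype. Knockout c was low and the other 2 knockout arrays lay within or near the wildtype range. Knockout minus wildtype was -0.24 on the log2 scale (95% interval -0.55 to 0.06, limma adjusted p = 0.741), and -0.07 without knockout c.

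Klf1 was at 11.89, 12.07 and 11.32 in knockout and 12.03, 12.16 and 11.92 in wildtype, the same order of arrays as Gata1 within knockout. The knockout mean was 11.76 ± 0.39 and the wildtype mean 12.04 ± 0.12 (SD, n = 3 each). The difference was -0.28 log2 units (95% interval -0.71 to 0.16, limma adjusted p = 0.770), and -0.06 without knockout c.

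Tal1, the basic helix-loop-helix factor that starts the blood program, had the widest span among the brightest probe sets of the 10 genes, 1.33 log2 units. In deposited intensity units its knockout values were 1280, 1380 and 726 and its wildtype values 1410, 1830 and 1030. Sample c was lowest in both groups, and the groups overlapped. The log2 difference was -0.35 (95% interval -1.15 to 0.45, limma adjusted p = 0.840), and it was -0.05 without knockout c and -0.15 without wildtype b.

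Nfe2, the large subunit of the NF-E2 factor that acts at the globin locus and in platelets, had the largest difference of the 10 genes at their brightest probe sets. It was at 10.04, 10.40 and 9.56 in knockout and 10.49, 10.71 and 10.11 in wildtype. The groups overlapped, since knockout b lay above wildtype c. The difference was -0.44 log2 units (95% interval -0.97 to 0.10, limma adjusted p = 0.734), and -0.22 without knockout c.

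**Figure D2:**
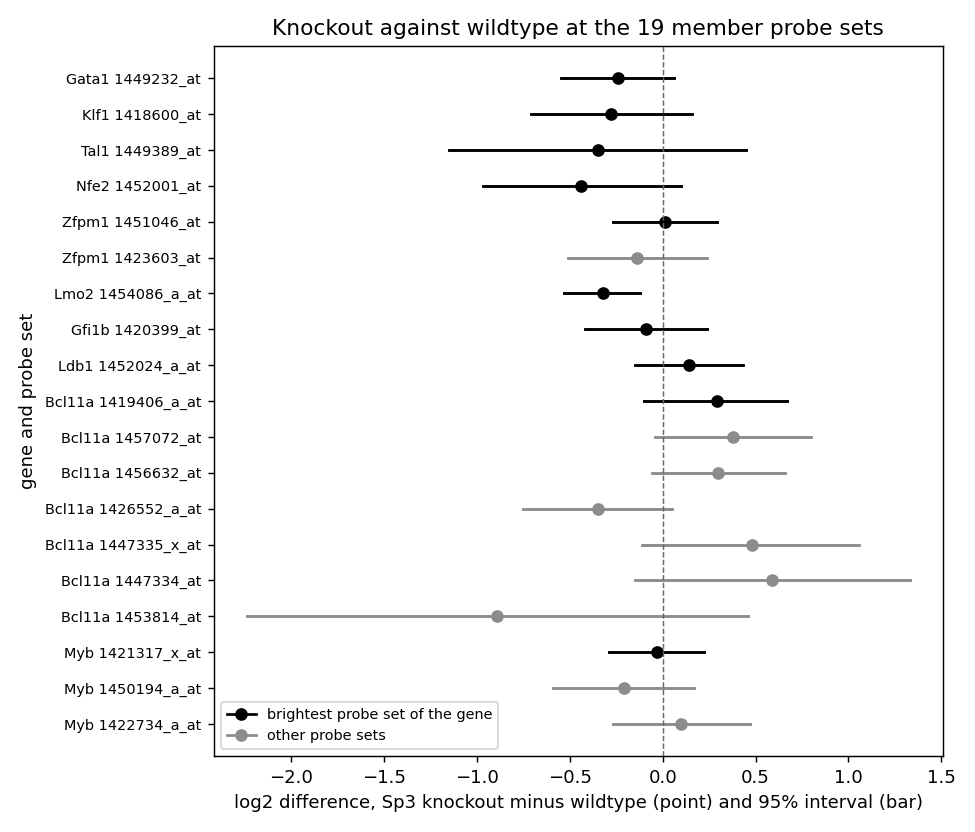
Log2 difference of knockout minus wildtype at all 19 member probe sets, with the 95% interval from limma before any adjustment for the number of probe sets. Of the black points, only the Lmo2 interval, from -0.53 to -0.12, lies wholly on 1 side of 0, and the Bcl11a probe sets lie on both sides.

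Zfpm1, also called Fog1, a partner that Gata1 needs in red cells and platelets, was nearly level between the groups. Its brighter probe set was at 9.91, 10.14 and 9.64 in knockout and 9.83, 10.05 and 9.78 in wildtype, a log2 difference of 0.01 (95% interval -0.27 to 0.29). The second probe set, annotated to the same source sequence, differed by -0.14 (95% interval -0.51 to 0.24). Knockout c was lowest on both. The first difference changed sign with the array left out, from -0.11 to 0.14.

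Gfi1b, a zinc finger repressor of progenitor genes, was at 8.97, 9.59 and 9.32 in knockout and 9.19, 9.51 and 9.44 in wildtype. Here knockout a was low and knockout b high, unlike the order seen for Gata1 and Klf1. It differed by -0.09 log2 units (95% interval -0.42 to 0.24).

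Ldb1, the scaffold that joins the complex on distant elements, was at 8.75, 8.94 and 9.25 in knockout and 8.79, 8.80 and 8.93 in wildtype. Knockout c was the highest of the 6 arrays. Knockout exceeded wildtype by 0.14 log2 units (95% interval -0.15 to 0.43), and it was 0.01 without that array.

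Myb, which keeps early erythroid cells dividing and declines as they mature, was measured at 3 probe sets that did not share a direction. The brightest was at 9.87, 9.89 and 10.06 in knockout and 9.80, 9.91 and 10.20 in wildtype, a log2 difference of -0.03 (95% interval -0.29 to 0.22). Probe set 1450194_a_at differed by -0.21 and 1422734_a_at by 0.10, with limma adjusted p of 0.800 and 0.907. The brightest carries the suffix x, which marks probes that may also match other transcripts.

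Bcl11a, which silences embryonic globins in definitive red cells and is also made in neurons and B cells, gave opposite signs at its probe sets. Its brightest probe set was at 8.59, 8.77 and 9.06 in knockout and 8.56, 8.14 and 8.86 in wildtype. Knockout c was highest and wildtype b lowest. The log2 difference was 0.29 (95% interval -0.10 to 0.67, limma adjusted p = 0.749), and it was 0.10 without wildtype b.

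Of the 7 Bcl11a probe sets 5 were higher in knockout and 2 lower. The other 4 higher ones differed by 0.38, 0.30, 0.48 and 0.59. The last 2 of these are annotated to the same source sequence and are not separate evidence. Wildtype b was the lowest array at all 5.

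The 2 lower Bcl11a probe sets showed another pattern. At 1426552_a_at knockout was at 6.68, 7.17 and 6.87 and wildtype at 7.12, 7.14 and 7.51, a log2 difference of -0.35 (95% interval -0.75 to 0.05). At 1453814_at the difference was -0.89 with an interval of -2.24 to 0.46, in a class of dim probe sets whose median residual SD was 0.94. The limma adjusted p of the 7 lay between 0.718 and 0.772. Probe set 1447335_x_at was the only one of them with no overlap between the groups, higher in knockout, and over the whole array 6.15% of probe sets were higher in that way. Which transcripts each probe set reads was not tested.

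**Figure D3:**
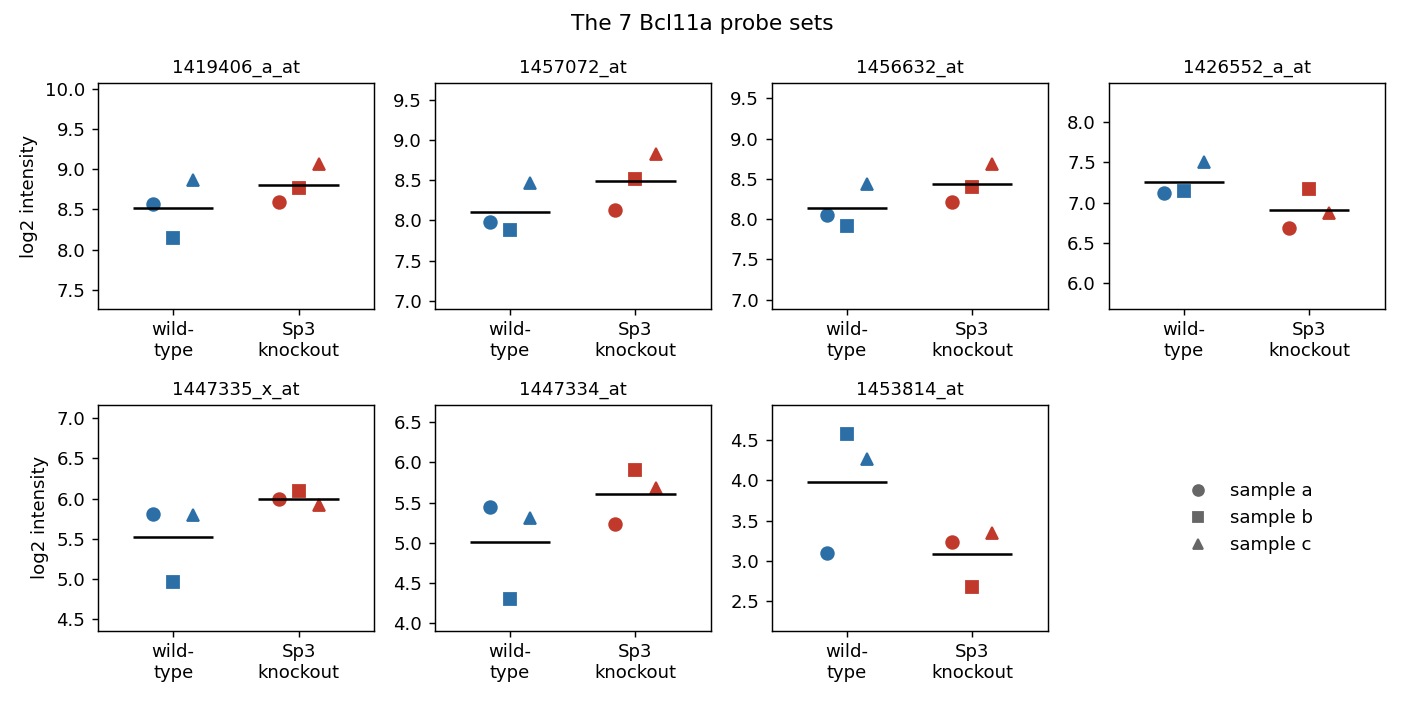
Log2 intensity at the 7 Bcl11a probe sets, each panel with the same span of 2.8 log2 units, points for single arrays and black lines for group means. Knockout means lie above wildtype means in 5 panels and below them at 1426552_a_at and 1453814_at.

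The members fell into differing profiles over the 6 arrays. Knockout c was the lowest array for 6 of the 10 genes, Gata1, Klf1, Tal1, Nfe2, Zfpm1 and Lmo2, and the highest for Ldb1 and Bcl11a. Wildtype b was the highest for 5, Gata1, Klf1, Tal1, Nfe2 and Lmo2, and the lowest for Bcl11a. Red cell markers moved with the first set. Over the 9 measured of 15 listed genes their centred mean was 0.06, 0.15 and -0.69 on the knockout arrays, against 0.29, 0.23 and -0.04 on the wildtype arrays. The part of red cell content in the members' values was not tested.

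Alas2 and Slc4a1, chosen after their values were seen, were also lowest in knockout c. Alas2, the first enzyme of heme synthesis in red cells, was at 11.52, 11.64 and 9.57 in knockout and 11.68, 12.18 and 10.72 in wildtype. Slc4a1, the band 3 anion exchanger, was at 12.17, 12.41 and 11.35 and at 12.42, 12.45 and 12.15. The Hba-a1 and Hba-a2 probe sets were dim, at most 5.34. With both left out the marker mean ran -0.04, 0.23 and -0.90 over the knockout arrays, and 0.28, 0.53 and -0.10 over the wildtype arrays.

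**Figure D4:**
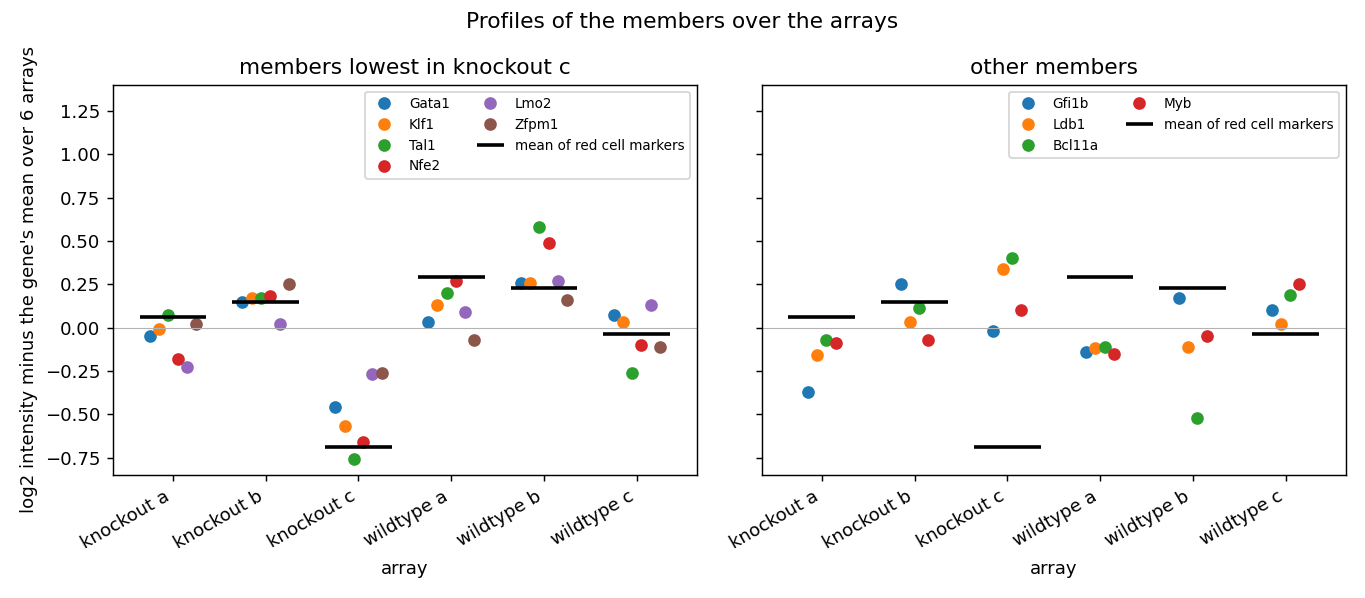
Log2 intensity of each member minus its mean over the 6 arrays, for the genes lowest in knockout c (left) and the others (right). Points are genes and black bars are the mean of the red cell markers, which is -0.69 in knockout c.

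Set against the red cell markers of the same array, the members differed from each other. The values are each gene's log2 minus the marker mean of that array, centred over the arrays. The span of Klf1 narrowed from 0.83 to 0.29 log2 units, that of Tal1 from 1.33 to 0.56, of Nfe2 from 1.15 to 0.51 and of Gata1 from 0.72 to 0.49. It widened for the other 6, for Bcl11a from 0.92 to 1.84, for Ldb1 from 0.50 to 1.45 and for Myb from 0.40 to 1.25. With the dim Hba-a1 and Hba-a2 probe sets left out of the markers, the spans were 0.59 for Klf1, 0.30 for Tal1, 0.38 for Nfe2 and 0.71 for Gata1, so that Gata1 was then nearly as wide as without any shift.

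On this scale Gata1 and Klf1 differed between knockout and wildtype by 0.08 and 0.04, Lmo2 by 0.00, Tal1 by -0.03 and Nfe2 by -0.12. With the 2 dim probe sets left out these became 0.23, 0.20, 0.15, 0.13 and 0.04, so that Tal1 and Nfe2 changed sign. The mean of the 7 markers left differed by -0.47 between knockout and wildtype, so this shift raised all probe sets alike. Without any shift the median difference of all probe sets was 0.02, above that of each of these 5 genes. An equal shift keeps that order, so the 5 stayed below that median with the 7 markers too. The median over the 10 genes, -0.17 without any shift, was likewise below it. The shift by all 9 markers moved the median difference of all probe sets to 0.34, above each of the 5 differences by those 9 markers. Zfpm1 was higher in knockout by 0.33, at -0.04, 0.10 and 0.44 in knockout and -0.36, -0.06 and -0.07 in wildtype, with no overlap, where 8.05% of all probe sets were higher without overlap on this scale. Its difference was close to the median of all probe sets. The difference was 0.46 for Ldb1, 0.61 for Bcl11a, 0.29 for Myb and 0.23 for Gfi1b, and knockout c was highest for each of these. The median over the 10 genes was 0.15, with 0.31 when the dim Hba-a1 and Hba-a2 probe sets were left out and -0.01 without knockout c. No test was run on these differences from the markers.

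Averaged as a list, genes that the network is known to act on were lowest in knockout c as well, though not every gene of the list was. In a list of red cell genes 48 of 59 were measured, and 44 were lower and 4 higher in knockout, with a median log2 difference of -0.37 and 0 called by limma. Leaving out knockout c gave a median of -0.07, and leaving out knockout b gave -0.56. Centred per gene and averaged, the list stood at -0.02, 0.22 and -0.70 on the knockout arrays, and at 0.23, 0.41 and -0.14 on the wildtype arrays. It is not independent of the red cell markers, since it holds all 9 that were measured.

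Of these genes Car2, the main carbonic anhydrase of red cells, had the smallest p, at 12.62, 12.80 and 12.38 in knockout and 13.06, 13.02 and 13.02 in wildtype. All knockout arrays were below all wildtype arrays, a log2 difference of -0.43 with limma adjusted p = 0.205. Slc25a38, a mitochondrial glycine carrier for heme synthesis, differed by -0.49 and Abcb10, a mitochondrial transporter of red cells, by -0.45, with adjusted p of 0.520 and 0.641. In the other direction stood Car1, another carbonic anhydrase of red cells, at 8.50, 8.40 and 7.49 in knockout and 6.77, 7.41 and 7.23 in wildtype. Its log2 difference was 0.99 (limma adjusted p = 0.520), and knockout c was the nearest of its group to wildtype.

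Hba-x, the embryonic zeta globin, differed by 0.23 and Hba-a1 by 0.77, the latter in a class of dim probe sets. Neither passed.

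In a list of genes taken as lowered by Gata1 during maturation, 9 of 14 were higher and 5 lower in knockout. The median log2 difference was 0.12, and limma called 0. Gata2, which Gata1 replaces on chromatin, was at 6.46, 6.41 and 6.48 in knockout and 5.91, 6.19 and 6.20 in wildtype. The groups did not overlap, and the log2 difference was 0.35 (limma adjusted p = 0.733). Hes1, a Notch target, differed by 0.49 with adjusted p = 0.678, and Kit, the stem cell factor receptor, by 0.50 with 0.742. Of those lower in knockout, the smallest p belonged to Spi1, the myeloid factor that opposes Gata1, at -0.23, Cd34, a surface protein of progenitors, at -0.11, and Hhex, a homeobox factor, at -0.07. The list includes Myb and Bcl11a themselves. Bcl11a, at 0.29, is among those higher, and whether Gata1 lowers each listed gene was not tested.

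**Figure D5:**
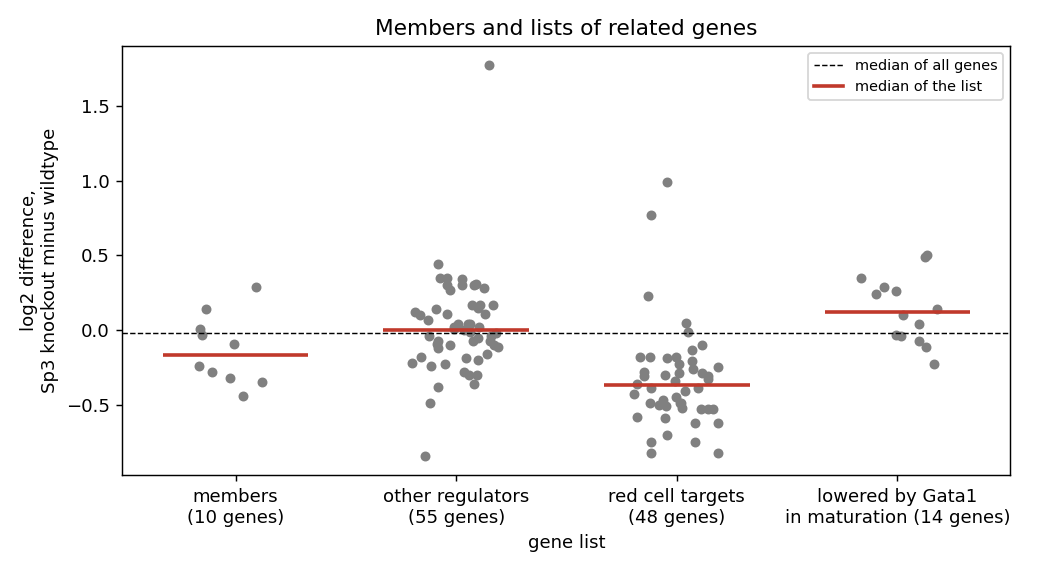
Log2 difference of knockout minus wildtype for each measured gene of 4 lists, 1 probe set per gene, with red bars for list medians and a dashed line for the median of all genes, -0.02. The red cell targets lie mostly below 0, with a median of -0.37, and the other regulators around 0.

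Among 55 other regulators of the lineage 28 were higher and 27 lower in knockout, the median log2 difference was 0.00 and limma called 0. The smallest p values belonged to Klf3, a repressor that Klf1 activates, at -0.30, and to Ep300, an acetyltransferase recruited by Gata1 and Klf1, at 0.30, with limma adjusted p of 0.658 and 0.661. The knockout mean of Klf3 was 9.87 ± 0.18 and the wildtype mean 10.17 ± 0.15 (SD, n = 3 each), with knockout b above the lowest wildtype array. Ep300 was at 8.82, 8.72 and 8.63 and at 8.42, 8.48 and 8.37, without overlap. Also named by rank were Rcor1, a corepressor of Gfi1b, at 0.28, Tcf12, an E-protein partner of Tal1, at 0.35, E2f2, a cell cycle factor of late erythroblasts, at -0.84, and Mafk, the small Maf partner of Nfe2, at -0.30. Their limma adjusted p lay between 0.708 and 0.718.

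Partners and relatives of the members, and factors that act beside them, were grouped by role after their values were seen. The 4 other parts of the Ldb1 complex, Ssbp2, Ssbp3, Ssbp4 and Cbfa2t3, were all higher in knockout, between 0.02 and 0.30. Related factors outside that group, Lmo4 and Runx1t1, differed by -0.28 and -0.10. The 5 Maf and cap'n'collar relatives of Nfe2, which are Mafk, Mafg, Bach1, Nfe2l1 and Nfe2l2, were all lower, between -0.30 and -0.07. Of 8 subunits of the NuRD and Rcor1 corepressors 5 were higher and 3 lower. The E-protein and related partners of Tal1 and the coactivators were each 2 higher and 2 lower, and Gata2, Gata4 and Gata6 were all higher, between 0.17 and 0.35. Sox6 and Zbtb7a, which silence embryonic globin genes along with Bcl11a, differed by -0.49 and -0.10. None of these passed, with limma adjusted p between 0.661 and 0.988.

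Markers of other cells that make some of the members were given beside them. Megakaryocytes share Gata1, Zfpm1, Gfi1b and Nfe2, and 10 of 12 of their markers were measured. The level of that list was 0.05 to 0.09 in knockout and -0.08 to -0.05 in wildtype. Of these markers 5 were higher and 5 lower in knockout, with a median log2 difference of 0.04 and 0 called by limma. The largest difference, 1.01, was at the dim Selp and raises the list level in knockout. Endothelium makes Tal1 and Lmo2, and its 13 markers had a level of -0.07 to 0.15 in knockout and -0.10 to -0.02 in wildtype. Neurons make Bcl11a, and their 11 measured markers of 12 were at -0.13 to 0.30 and -0.59 to 0.39, and the lymphoid markers, 11 of 12, at -0.68 to 0.32 and -0.20 to 0.82. Both lists were mostly dim, with median levels of 3.49 and 2.22, so their array values carry little weight. Blood progenitor markers, 12 in all with Myb among them, were at -0.19 to 0.14 and -0.09 to 0.04. Macrophage markers, 12 in all, were lower in knockout, at -0.76 to -0.04 against 0.15 to 0.39, and lowest in knockout c, while 14 of 16 hepatocyte markers were at -0.16 to 0.00 and -0.11 to 0.16. Heart muscle markers, 16 in all, were at 0.26 to 0.54 in knockout and -0.93 to 0.00 in wildtype. They too were mostly dim, with a median level of 3.51, so their array values also carry little weight. The part of each cell type in the members' values was not tested.

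The genes whose profile was nearest to Gata1 over the 6 arrays were Cnst, Znhit2 and Pop5, and nearest to Klf1 were Arrb1, Vangl1 and Nudt4. They were picked from 10816 genes above the median level by the root mean square difference of centred log2 values. That difference was 0.03 to 0.04 log2 units for all 6 genes, where the profiles of Gata1 and Klf1 themselves varied by 0.23 and 0.27. Arrb1, for example, was at -0.59 in knockout c and 0.27 in wildtype b, close to the -0.57 and 0.26 of Klf1. With so many genes and only 6 arrays such close matches are a description.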

How the data were processed

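The deposited table holds intensities per probe set on a linear scale for 6 arrays. Per the submitters' processing notes the tools were GCOS and RMA, without versions or what each did. Control probe sets, 64 in all, were left out, log2 was taken, and nothing else was normalized. Annotation of the array named 1 gene for 34945 probe sets, and 932 with several genes and 9160 with none were not named. Where a gene had several probe sets, the one brightest on average stood for it. No pair of arrays shared more than 1 identical value. The labels do not say more on how separate the samples are, so a p-value reflects only how these samples vary, and precision is limited by having 6 arrays.

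Tests used limma 3.58.1 in R 4.3.3, with lmFit and eBayes, an intensity trend and robust estimation, on all 45037 probe sets, with a call at p under 0.05 after Benjamini-Hochberg adjustment, by a two-sided test. The trend was chosen because the median residual SD fell from 1.27 among the dimmest to 0.13 among the brightest of 10 equal classes. The script was tested on simulated data. Gene lists were described by counts and medians without a test. Red cell markers were Slc4a1, Epb42, Alas2, Rhag, Ermap, Kel, Trim10, Hba-a1 and Hba-a2.

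Named were all members, Sp3, in 3 lists the genes of the 3 smallest p in each direction, and the 3 genes nearest in profile to Gata1 and Klf1. The members and lists were chosen with earlier results of these data known. Alternatives were quantile normalization, median centring, no trend, dim probe sets left out, 16 intensity units added, array weights, the letter as a block, a shift by the red cell markers, each array left out, and averaging all probe sets of a gene. After the data were seen, leaving Hba-a1 and Hba-a2 out of the red cell markers was added.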

Additional observations from a re-analysis of the deposited data

How the results depend on the processing

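The alternatives on single probe sets covered all 19 of the members, except that Bcl11a 1453814_at dropped out with the dim probe sets. Averaging the probe sets of a gene and leaving out Hba-a1 and Hba-a2 were applied to genes and their median, not to single probe sets. Under quantile normalization, median centring, no intensity trend, dim probe sets left out, added intensity units, array weights, the red cell marker shift and each array left out, 0 members were called. The labels do not say whether the letters pair the samples. Deviations of same-lettered arrays correlated at 0.01, 0.31 and 0.44 for a, b and c. Knockout b and knockout c correlated best with the wildtype array of their own letter, and knockout a with wildtype b, at 0.13. Deviations within a group of 3 depend on each other, so these correlations cannot settle the pairing. With the letter as a replicate block, 1 member was called, Nfe2 at -0.44 with limma adjusted p = 0.0435, and 52 probe sets were called higher and 206 lower over the whole array. Over the array the fit without the trend called 0 higher and 0 lower, array weights called 18 lower, and the marker shift called 1 lower. With an array left out the counts ran from 3 to 12 higher and from 0 to 12 lower.

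The median over the 10 genes ran from -0.31 without knockout b to -0.07 without knockout c, and the number of genes lower ran from 5 without knockout a to 8. It was 0.15 after the marker shift, which moved the median of all probe sets to 0.34. The median relative to the markers ran from -0.01 to 0.29 over the arrays left out. Signs turned under the marker shift for Gata1 at 0.08, Klf1 at 0.04, the second Zfpm1 probe set at 0.18, Gfi1b at 0.23 and 2 Myb probe sets at 0.29 and 0.11. The first Zfpm1 probe set was at -0.07 with median centring and the brightest Myb probe set at 0.04 with quantile normalization. With an array left out Zfpm1 ran from -0.11 to 0.14, Gfi1b from -0.24 to 0.07, and Myb from -0.12 to 0.08 and from -0.09 to 0.24. The cause of these changes was not tested, beyond the shift itself.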

Other observations

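The beta-like embryonic globins, which Bcl11a and Sox6 silence, were picked here after their values were seen. Mean Hbb-y was 13.37 ± 0.04 on knockout arrays and 13.38 ± 0.03 on wildtype arrays (SD, n = 3 per group), and Hbb-bh1 at 13.14 ± 0.12 and 13.09 ± 0.26. Both lay near the top of the scale, and neither differed beyond the spread between arrays. Epor, the erythropoietin receptor and a Gata1 target, was at 9.57 ± 0.24 and 9.67 ± 0.11, and Tfrc, the transferrin receptor, at 12.18 ± 0.22 and 12.36 ± 0.19. Hemgn, a red cell nuclear protein, was at 11.61 ± 0.40 and 11.90 ± 0.13. Gfi1, the close relative of Gfi1b that acts in stem and myeloid cells, was at 3.60 ± 0.30 in knockout and 1.83 ± 1.29 in wildtype. It did not pass (limma adjusted p = 0.72). Its probe set is in a class of dim ones, so neither the presence nor the size of a difference is established.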
